A study of Homo sapiens with 12 samples.

Results

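Expression of 10 genes of protein lipoylation and copper-dependent cell death was followed in OCI-AML3 cells, a human line grown from an acute myeloid leukaemia. The genes were chosen by symbol and are FDX1, LIAS, LIPT1 and LIPT2, which make or attach lipoic acid, DLAT, DLST and GCSH, which carry it, and PDHA1, PDHB and DLD, which work in the same complexes. Each symbol matched 1 identifier, so 10 of the 57905 identifiers in the count table were members, and all 10 passed the filter on low counts that left 13832 identifiers for testing. The series holds 12 libraries in 4 groups of 3. SA cells received SA at 500 µM for 6 days and Vehicle cells the vehicle alone for 6 days. sgALAS1 cells carried guide RNA against ALAS1 and sgSCR cells scrambled guide RNA, and both received doxycycline for 7 days to switch its expression on. The labels do not spell SA out; in heme research it usually stands for succinylacetone, which blocks the heme enzyme ALAD. The number of guides and of clones, and whether replicates are separate cultures, are not given in the labels, so a p-value here covers only differences among the libraries, which may be technical.

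Lipoic acid is a sulfur-containing cofactor bound to a lysine of a few mitochondrial enzymes, where it carries acyl or aminomethyl groups between active sites. LIPT2 places an octanoyl chain made by mitochondrial fatty acid synthesis on GCSH, LIAS inserts the sulfur atoms with its iron-sulfur clusters, and LIPT1 moves the finished lipoyl group to the 2-keto acid dehydrogenases. FDX1, a ferredoxin that passes on electrons, is needed for lipoylation. In cuproptosis, copper binds lipoylated proteins such as DLAT, which aggregate, and iron-sulfur proteins are lost. The series' title places heme synthesis beside this form of death, and the comparisons ask whether transcripts of its core genes differ when heme synthesis is targeted by compound or by guide.

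Libraries held 4658513 to 7339843 assigned reads with a median of 5573540. QuantSeq reads tag the 3′ end of a transcript, so the normalised counts given here, in CPM, count transcripts and are not divided by gene length. All CPM are scaled by TMM factors. Changes are given as log2 fold changes, each with a standard error (SE), and a change was called at an adjusted p under 0.05 in edgeR's quasi-likelihood test. Of 6 myeloid markers, 5 had at least 10 reads in every library, and MPO, of the myeloid granules, was low at 1.55 to 4.97 CPM. The summed level of these 6 was 2307 to 2429 CPM with SA, against 1229 to 1256 CPM with Vehicle, and 1835 to 2038 CPM with sgALAS1, against 988.7 to 1100 CPM with sgSCR; its part in the members' values was not tested. LYZ, lysozyme, carried most of this sum, at 1455 CPM on average with SA, against 563.9 CPM with Vehicle, and 1030.0 CPM with sgALAS1, against 340.7 CPM with sgSCR. With SA the 6 did not move together. LYZ and SPI1 rose (log2 fold changes 1.37 and 0.96, adjusted p = 1.36e-09 and 0.000133). PTPRC, CD33 and CEBPA were at 0.28, 0.27 and 0.28 without a call, and MPO was at -1.03 without a call (adjusted p = 0.21). With sgALAS1 all 6 were above 0. LYZ, CEBPA and PTPRC rose (1.60, 0.42 and 0.33, adjusted p = 1.9e-11, 0.0307 and 0.0453). SPI1, CD33 and MPO were at 0.35, 0.26 and 0.21 without a call. LYZ was lower with sgSCR than with Vehicle (-0.73, adjusted p = 0.000402), so its rise with sgALAS1 is measured from the lower control. Of 11 markers of T, B, red, epithelial and fibroblast cells, 6 had no read in any library. COL1A2, a collagen gene, had the most reads of these 11, at 0.199 to 7.26 CPM. ALAS1 (ENSG00000023330, chromosome 3), the target of the guide, stood at 26.2, 26.3 and 27.3 CPM in sgALAS1 libraries, against 38.6, 41.9 and 37.4 CPM in sgSCR libraries (log2 fold change -0.56, adjusted p = 0.00777). That call was lost without sgSCR replicate 2 (-0.51, adjusted p = 0.0503). In the drug arm ALAS1 stood at 106, 102 and 111 CPM with SA, against 37.5, 36.4 and 31.1 CPM with Vehicle (1.60, adjusted p = 1.36e-09).

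The 10 genes differed widely in level. Averaged over the 12 libraries, DLST had the most transcripts at 56.5 CPM, followed by PDHA1 at 56.1, PDHB at 49.9, DLD at 47.5, DLAT at 30.4, FDX1 at 20.95, LIAS at 8.89, LIPT1 at 3.74, GCSH at 1.56 and LIPT2 at 0.992 CPM. Only FDX1 and LIAS were neighbours in this order with ranges over the 12 libraries that did not overlap, at 14.1 to 31.4 CPM for FDX1 and 4.72 to 12.5 CPM for LIAS. The 3 transferase and synthase genes thus lay below the dehydrogenase subunits, and GCSH and LIPT2 rested on 3 to 14 and 1 to 13 reads per library. Counting error alone makes these last 2 genes imprecise. Of 11 annotated copies of the members, 9 had no reads. The others, GCSHP3 and PDHA1P1, had 11 and 4 reads over all libraries, 9 of the 11 in sgSCR replicate 3, where GCSH itself had 9. The handling of multi-mapping reads was not given. Copies without reads therefore do not show that GCSH, or another member with copies, was counted in full.

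The start regions of DLAT, LIAS and FDX1 are shown because these genes carried the call or stood at the centre of the pathway. They come from RefSeq on GRCh38.p14, run from 250 bases before to 50 after the start, and are read on the + strand; all 10 members matched the table. Capitals mark matches, on either strand, to 7 motifs: CCAAT, the ETS-type CCGGAAG, the GC box GGGCGG, the TATA box TATAAA, the NRF1 motif, the E-box CACGTG and the cyclic AMP element TGACGTCA. No matches overlapped in these 3 windows. The windows are chr11:112025158-112025457 for DLAT, chr4:39458806-39459105 for LIAS and chr11:110429698-110429997 for FDX1.
DLAT: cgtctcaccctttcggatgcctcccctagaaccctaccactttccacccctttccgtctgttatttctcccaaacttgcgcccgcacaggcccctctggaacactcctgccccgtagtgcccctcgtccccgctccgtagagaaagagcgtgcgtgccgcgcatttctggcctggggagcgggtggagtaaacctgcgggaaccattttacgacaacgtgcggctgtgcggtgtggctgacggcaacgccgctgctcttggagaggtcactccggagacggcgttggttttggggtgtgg
LIAS: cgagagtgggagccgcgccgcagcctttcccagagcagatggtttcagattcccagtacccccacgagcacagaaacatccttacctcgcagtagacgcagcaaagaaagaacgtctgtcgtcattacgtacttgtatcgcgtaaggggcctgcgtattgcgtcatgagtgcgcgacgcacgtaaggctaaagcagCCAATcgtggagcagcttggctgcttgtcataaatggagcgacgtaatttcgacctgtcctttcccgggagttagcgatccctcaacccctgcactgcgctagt
FDX1: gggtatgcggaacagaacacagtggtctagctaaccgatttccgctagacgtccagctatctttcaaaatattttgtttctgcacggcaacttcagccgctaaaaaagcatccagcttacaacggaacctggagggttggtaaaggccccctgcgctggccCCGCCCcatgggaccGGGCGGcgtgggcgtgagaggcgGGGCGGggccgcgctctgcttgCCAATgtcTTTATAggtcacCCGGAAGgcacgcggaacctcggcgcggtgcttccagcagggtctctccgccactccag
The DLAT window held none of the 7 motifs, the LIAS window 1 CCAAT and the FDX1 window 6 matches, among them 3 GC boxes. FDX1 also held the only match to TATAAA among the 10 genes, which reads TTTATA here and so lies on the strand opposite to the gene. CCAAT was found in 6 of the 10 members and in 34.6% of all 35116 windows of this length, and the GC box in 7 members and 45.0% of windows. The ETS-type motif was found in FDX1, DLST and GCSH and in 10.3% of windows, the TATA box in 11.5%, and the E-box in PDHB and 7.26%. Neither the NRF1 motif (1.24% of windows) nor the cyclic AMP element (1.85%) was found in any member. The ribosomal protein gene RPL9 starts inside the LIAS window on the opposite strand. Its log2 fold changes were 0.03 with SA and -0.21 with sgALAS1, without a call (adjusted p = 0.924 and 0.364).

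With SA, the transcript of DLAT fell, and no other member passed the test. This is 1 of 10 members, against 11.1% of all tested genes in the same comparison (4.83% higher and 6.24% lower). At an unadjusted p under 0.05 there were 3 members, DLAT, PDHA1 and PDHB, all lower, against 24.4% of all genes. Log2 fold changes were below 0 in 8 of 10 members, against 51% of all genes, and their median was -0.37, against -0.0095 over all genes. Levels of SA and Vehicle did not overlap in LIAS, DLAT and PDHB, which were lower (14.8% of all genes), and in LIPT1, which was higher (12.6%).

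**Figure D1:**
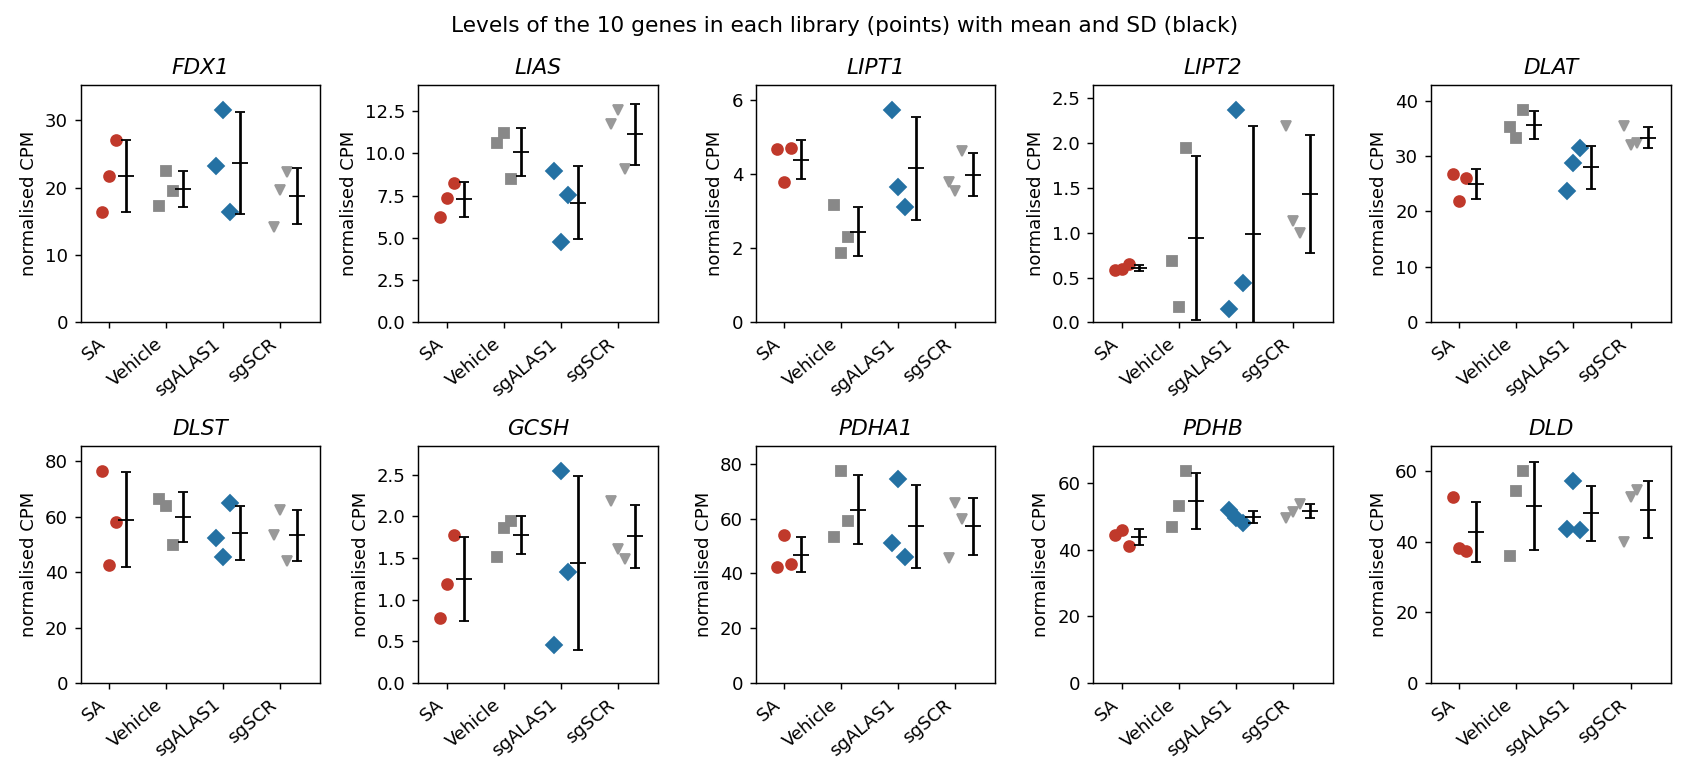
Normalised CPM (vertical axis, from 0) of each of the 10 genes in SA, Vehicle, sgALAS1 and sgSCR libraries; points are libraries and black bars the mean with SD of n = 3, cut at 0 for LIPT2. DLAT lay at 21.9 to 26.8 CPM with SA, below all Vehicle libraries at 33.2 to 38.2 CPM, while the groups overlapped for FDX1, DLST and DLD.

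Among the genes that make and attach lipoic acid, none was called in the drug arm. FDX1 (ENSG00000137714, chromosome 11) had 16.3, 21.7 and 27.1 CPM with SA, against 17.2, 22.5 and 19.5 CPM with Vehicle. The groups overlapped, with the highest and the lowest library both in SA, and the log2 fold change was 0.14 (SE 0.23, 95% interval -0.33 to 0.62, adjusted p = 0.768). LIAS (ENSG00000121897, chromosome 4), the synthase, had 6.22, 7.36 and 8.27 CPM with SA, against 10.6, 11.2 and 8.49 CPM with Vehicle. Every SA library was below every Vehicle library, but the change of -0.47 (SE 0.29, 95% interval -1.06 to 0.13) did not pass (adjusted p = 0.337). LIPT1 (ENSG00000144182, chromosome 2), the transferase to the dehydrogenases, had 4.66, 3.78 and 4.70 CPM with SA, against 3.17, 1.86 and 2.30 CPM with Vehicle. Its groups did not overlap, at 0.83 (SE 0.45, 95% interval -0.10 to 1.75, adjusted p = 0.264). LIPT2 (ENSG00000175536, chromosome 11), which loads the octanoyl chain, had 3, 3 and 4 reads with SA, against 5, 1 and 11 reads with Vehicle. The interval of its change, from -2.53 to 1.38, allows a several-fold difference either way at this depth.

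Among the proteins that carry the lipoyl group, DLAT (ENSG00000150768, chromosome 11), the acetyltransferase core of pyruvate dehydrogenase, had 26.8, 21.9 and 26.1 CPM with SA, against 35.3, 33.2 and 38.2 CPM with Vehicle. The groups stood apart by more than their own spread, at 24.9 ± 2.66 CPM with SA and 35.6 ± 2.54 CPM with Vehicle (SD, n = 3 each), a log2 fold change of -0.51 (SE 0.17, 95% interval -0.85 to -0.17, adjusted p = 0.0437). The call was narrow. Leaving out SA replicate 1, 2 or 3 gave adjusted p-values of 0.072, 0.148 and 0.0891, and leaving out Vehicle replicate 1, 2 or 3 gave 0.0733, 0.0675 and 0.152, while the change itself stayed between -0.56 and -0.43. It also failed without the filter on low counts (0.0821) and with SA and Vehicle fitted alone (0.069). DLST (ENSG00000119689, chromosome 14), the matching core of 2-oxoglutarate dehydrogenase, had 76.4, 42.4 and 57.9 CPM with SA, against 66.2, 63.8 and 49.7 CPM with Vehicle. Its SA libraries held both the highest and the lowest value, and its change of -0.027 had a 95% interval of -0.39 to 0.34. GCSH (ENSG00000140905, chromosome 16), the carrier of the glycine cleavage system, had 4, 6 and 11 reads with SA, against 11, 11 and 11 reads with Vehicle (-0.48, 95% interval -1.91 to 0.95).

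**Figure D2:**
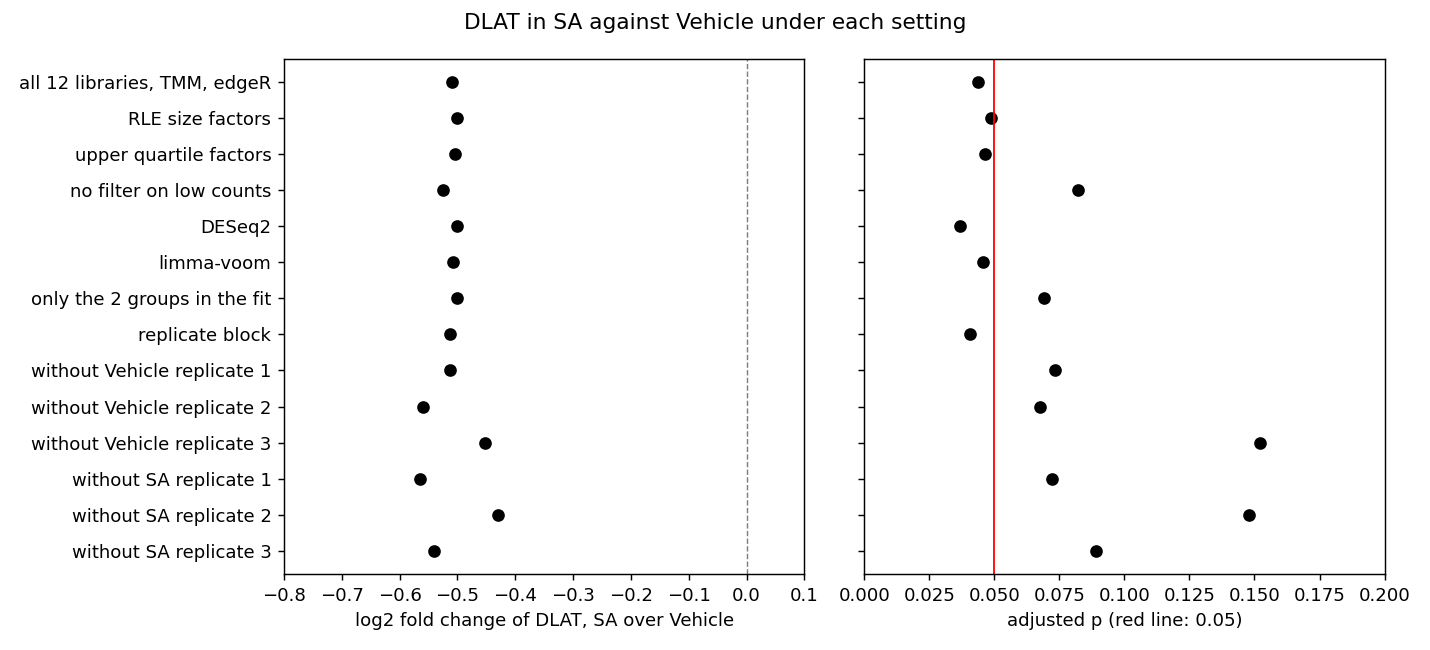
Log2 fold change of DLAT, SA over Vehicle (left), and its adjusted p with the threshold of 0.05 as a red line (right), for the fit reported here in the top row and 13 alternatives below it. The change stays between -0.56 and -0.43, while the adjusted p runs from 0.0368 to 0.152 and lies under 0.05 in 5 of the 13 alternatives.

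The 3 partner subunits among the members lay in the same direction as DLAT without a call. PDHX, a further subunit of pyruvate dehydrogenase outside the members, did not (-0.0085, adjusted p = 0.989). Its means were 13.4 CPM with SA and 13.5 CPM with Vehicle. PDHA1 (ENSG00000131828, chromosome X), the catalytic alpha subunit of pyruvate dehydrogenase, had 42.5, 54.1 and 43.6 CPM with SA, against 53.2, 77.3 and 59.1 CPM with Vehicle. The groups overlapped in 1 library each, and the change was -0.43 (SE 0.18, 95% interval -0.80 to -0.073, adjusted p = 0.115). PDHB (ENSG00000168291, chromosome 3), the beta subunit, had 44.3, 46.0 and 41.2 CPM with SA, against 46.9, 53.0 and 63.5 CPM with Vehicle. Its groups did not overlap, at -0.31 (SE 0.14, 95% interval -0.60 to -0.022, adjusted p = 0.167). DLD (ENSG00000091140, chromosome 7), the dehydrogenase that recharges the lipoyl group in all these complexes, had 52.7, 38.2 and 37.5 CPM with SA, against 36.0, 54.3 and 60.0 CPM with Vehicle. The single high SA library and the single low Vehicle library made the groups overlap (-0.23, SE 0.18, adjusted p = 0.491). Single libraries moved all 3 values: PDHA1 was at -0.27 without Vehicle replicate 2 (adjusted p = 0.475), PDHB at -0.18 without Vehicle replicate 3 (0.558), and DLD between -0.42 without Vehicle replicate 1 (0.138) and -0.071 without Vehicle replicate 3 (0.895). Chromosomes that hold the members had median log2 fold changes of -0.050 to 0.056 over their tested genes in this arm.

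Several members share their place with other genes, and whether counting used strand was not given in the sources used here. By RefSeq's gene spans on GRCh38.p14, DLAT overlaps PIH1D2, LIPT1 overlaps MITD1, PDHA1 overlaps MAP3K15, and LIPT2 overlaps its antisense gene LIPT2-AS1. PIH1D2 was at 5.83, 3.38 and 3.89 CPM with SA, against 7.59, 4.57 and 9.20 CPM with Vehicle (-0.70, adjusted p = 0.308), with groups that overlapped. MITD1 was at -0.38 (adjusted p = 0.213), opposite in sign to LIPT1, and MAP3K15 was at -0.63 (adjusted p = 0.298), with the sign of PDHA1. Both were lower in every SA library than in any Vehicle library, as 14.8% of all genes were. For MAP3K15 the gap was narrow, at 10.05 against 10.07 CPM. PDHB also overlaps a non-coding gene, and TSGA10 starts inside the LIPT1 window (-0.38 with SA, adjusted p = 0.756, with overlap). The part of these neighbours in the members' values was not tested.

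With the ALAS1 guide, 0 of 10 members passed edgeR's test, against 11.7% of all genes (4.88% higher and 6.85% lower); DESeq2 and limma-voom also called 0. At an unadjusted p under 0.05 there was 1 member, LIAS, against 24.8% of all genes. Log2 fold changes were below 0 in 7 of 10 members, against 50.3% of all genes, with a median of -0.041, against -0.0034 over all genes. Several of these signs were unstable when single libraries were left out. Below 0, PDHA1 and DLD turned in 4 of 6 such fits each, and LIPT2 and GCSH in 1 each. Above 0, LIPT1 and DLST turned in 2 of 6 each. LIAS and DLAT were lower with groups that did not overlap, against 15.5% of all genes that did so.

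LIAS had 8.95, 4.72 and 7.54 CPM in sgALAS1 libraries, against 11.8, 12.5 and 9.09 CPM in sgSCR libraries. Every sgALAS1 library was below every sgSCR library, with sgALAS1 replicate 2 the lowest of the 12 libraries, and the change was -0.65 (SE 0.29, 95% interval -1.24 to -0.052, adjusted p = 0.158). DLAT had 23.8, 28.7 and 31.5 CPM with sgALAS1, against 35.5, 32.0 and 32.4 CPM with sgSCR, which is -0.25 (SE 0.17, 95% interval -0.59 to 0.085, adjusted p = 0.371). FDX1 had 23.2, 31.4 and 16.4 CPM with sgALAS1, against 14.1, 19.6 and 22.3 CPM with sgSCR. The widest spread of FDX1 was thus among sgALAS1 libraries, and its change was 0.34 (SE 0.23, 95% interval -0.13 to 0.81, adjusted p = 0.392). Without sgALAS1 replicate 2, the change was 0.082 for FDX1 (adjusted p = 0.897) and -0.43 for LIAS (0.46), and without sgALAS1 replicate 1 that of DLAT was -0.15 (0.724). FDX1 was also at 0.18 without sgSCR replicate 1 (0.77) and at 0.55 without sgALAS1 replicate 3 (0.159).

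The dehydrogenase subunits were close to their sgSCR levels, with intervals that bound the change. PDHA1 had 51.2, 74.3 and 45.9 CPM with sgALAS1, against 45.6, 65.9 and 60.0 CPM with sgSCR (-0.0019, 95% interval -0.36 to 0.36). PDHB had 51.9, 49.4 and 48.1 CPM with sgALAS1, against 49.4, 51.4 and 53.7 CPM with sgSCR (-0.049, -0.34 to 0.24). DLD was at 43.7, 57.1 and 43.4 CPM with sgALAS1, against 39.8, 52.7 and 54.7 CPM with sgSCR (-0.033, -0.40 to 0.34). All 3 therefore overlapped between the groups, as did DLST at 52.2, 45.4 and 64.7 CPM with sgALAS1, against 53.4, 62.4 and 44.0 CPM with sgSCR (0.019, -0.35 to 0.39). LIPT1 had 5.71, 3.63 and 3.10 CPM with sgALAS1, against 3.78, 3.54 and 4.63 CPM with sgSCR (0.072, -0.83 to 0.97). LIPT2 had 1, 13 and 2 reads with sgALAS1, against 11, 7 and 6 reads with sgSCR, and GCSH 3, 14 and 6 reads against 11, 10 and 9 reads in the same order of groups. The high sgALAS1 library is replicate 2 for both genes, and differences in them were not detectable at this depth (log2 fold change -0.52, SE 0.88 for LIPT2 and -0.29, SE 0.70 for GCSH). Median log2 fold changes of the members' chromosomes were -0.037 to 0.066 in this arm.

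**Figure D3:**
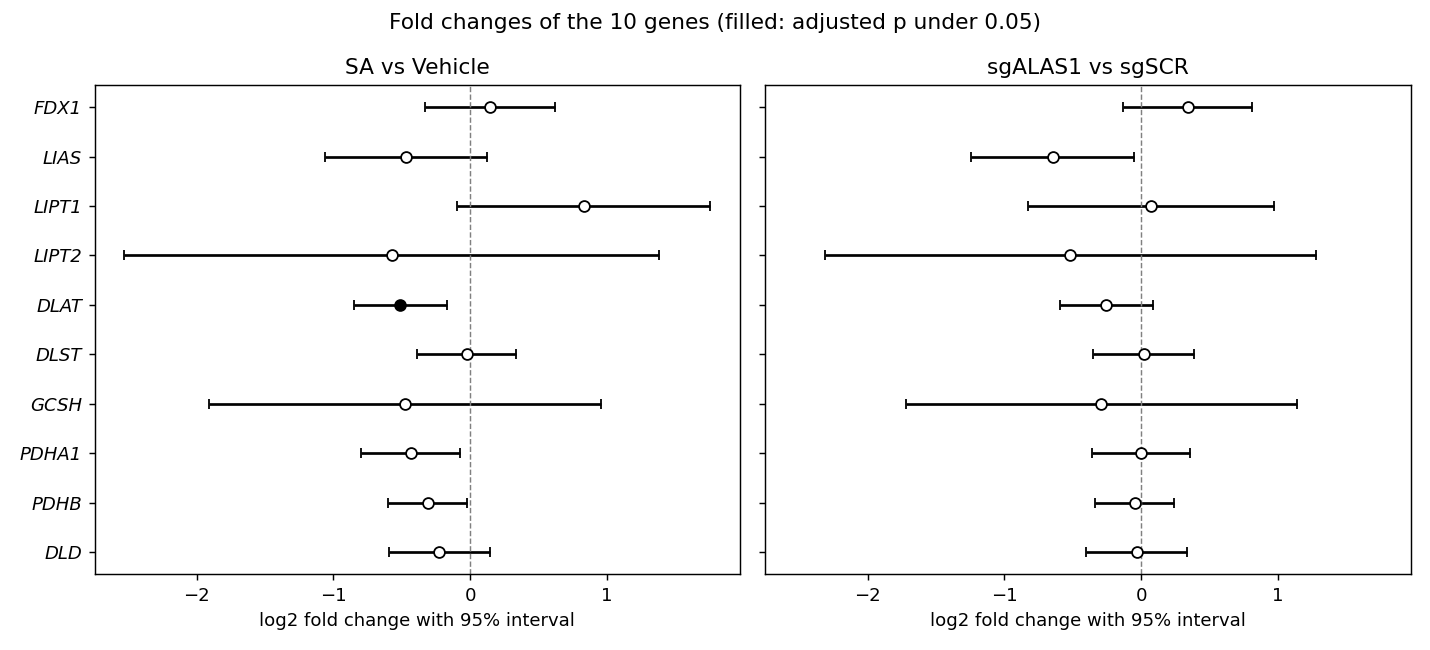
Log2 fold change with its 95% interval (horizontal axis) for the 10 genes, SA over Vehicle on the left and sgALAS1 over sgSCR on the right; the filled point passed the test at an adjusted p under 0.05. DLAT with SA is the only filled point, and the intervals of LIPT2 and GCSH are the widest, at -2.53 to 1.38 and -1.91 to 0.95 with SA.

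The difference between the arms, tested as the guide effect minus the drug effect, passed edgeR's test for 0 of 10 members, against 1.19% of all genes, and DESeq2 and limma-voom also gave 0. At an unadjusted p under 0.05 there were 0 members, against 11.9% of all genes. The differences ran from -0.755 for LIPT1 (SE 0.63, adjusted p = 0.698) to 0.43 for PDHA1 (SE 0.25, adjusted p = 0.521), with 0.26 for DLAT (95% interval -0.22 to 0.74, adjusted p = 0.733). DLAT's call with SA and its absence with the guide are therefore not shown to differ. The controls differ in guide, doxycycline and days, and between sgSCR and Vehicle 0 of 10 members passed edgeR's test, against 1.43% of all genes, with 0 by DESeq2 and limma-voom and 0 at an unadjusted p under 0.05 (12.6% of all genes). LIPT1 had the largest such difference of the 10 genes, higher in every sgSCR library than in any Vehicle library at 0.69 (adjusted p = 0.578), as 8.42% of all genes were.

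Beyond the 10 genes, 5 lists of neighbours in the pathway held 42 genes, of which 38 could be tested. For none of the 38 did the difference between the arms pass edgeR's test, against 1.19% of all genes. At an unadjusted p under 0.05 the share over all genes was 11.9%. In the lists there were 1 of 7 further complex subunits and 2 of 10 genes of pyruvate entry and phosphorylation. There were also 1 of 8 in fatty acid synthesis, 0 of 9 in the supply to LIAS and 2 of 4 other cuproptosis genes. Among the 8 genes of mitochondrial fatty acid synthesis, which builds the octanoyl precursor, 2 fell with SA, against 6.24% of all tested genes, and 2 fell with sgALAS1, against 6.85%, and none rose. NDUFAB1 (ENSG00000004779, chromosome 16), the acyl carrier protein that holds the growing chain, fell in both arms. It had 77.5, 71.0 and 75.1 CPM with SA, against 112, 106 and 104 CPM with Vehicle (-0.53, SE 0.12, adjusted p = 0.00285). With sgALAS1 it had 72.4, 77.6 and 71.8 CPM, against 103, 115 and 101 CPM with sgSCR (-0.53, SE 0.12, adjusted p = 0.00261). The groups were far apart relative to their spread in both arms, the arms share no library, and NDUFAB1 kept its call in all 13 alternatives of each arm. Of all tested genes 2.97% were called lower in both arms. NDUFAB1 is also a subunit of respiratory complex I, so its transcript serves more than lipoylation.

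The other calls in this list came from 1 arm each. HSD17B8, a subunit of the ketoacyl reductase, had 1.94, 1.59 and 1.95 CPM with SA, against 9.66, 4.57 and 4.07 CPM with Vehicle (-1.74, SE 0.44, adjusted p = 0.00925), and was -1.10 with sgALAS1 (adjusted p = 0.0721). The SA call was lost without Vehicle replicate 1, the highest of the Vehicle libraries (-1.23, adjusted p = 0.102), and the guide comparison passed without sgALAS1 replicate 2 (-1.44, adjusted p = 0.0461). MCAT, which loads the malonyl unit, had 9.11, 6.91 and 8.87 CPM with sgALAS1, against 20.3, 14.1 and 18.0 CPM with sgSCR (-1.07, SE 0.26, adjusted p = 0.00469). It was at -0.066 with SA (adjusted p = 0.91), and the difference between the arms did not pass (95% interval -1.72 to -0.29, adjusted p = 0.2). The median log2 fold change of the list was -0.15 with SA and -0.24 with sgALAS1, against -0.0095 and -0.0034 over all genes.

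Of 7 tested further subunits of lipoate-dependent complexes, 1 fell in each arm, against 6.24% of all genes with SA and 6.85% with sgALAS1, and none rose. BCKDHA, an E1 subunit of the complex that breaks down branched-chain keto acids, had 50.5, 47.7 and 66.5 CPM with SA, against 108, 93.6 and 81.2 CPM with Vehicle (-0.78, SE 0.14, adjusted p = 0.000381), and kept this call in all 13 alternatives. The sgALAS1 libraries also lay below all sgSCR libraries, without a call (-0.38, adjusted p = 0.0842, and 0.0475 with the 2 groups fitted alone). The mean of BCKDHA was 94.2 CPM with Vehicle and 78.1 CPM with sgSCR, so its fall with SA is measured from the higher control. Means were 54.9 CPM with SA and 59.9 CPM with sgALAS1. DHTKD1, of the 2-oxoadipate dehydrogenase, had 37.0, 33.8 and 31.9 CPM with sgALAS1, against 49.6, 57.2 and 50.6 CPM with sgSCR (-0.61, SE 0.17, adjusted p = 0.0145). This call was lost without sgSCR replicate 2 (0.0877) or sgALAS1 replicate 3 (0.0647), and the SA comparison (-0.48, adjusted p = 0.073) was -0.63 without Vehicle replicate 3 (adjusted p = 0.024) and -0.27 without Vehicle replicate 1 (adjusted p = 0.378). Between the controls, DHTKD1 was higher in every sgSCR library than in any Vehicle library (0.50, adjusted p = 0.147). Its mean was 52.5 CPM with sgSCR, 37.0 CPM with Vehicle and 34.25 CPM with sgALAS1, so its fall is measured from the higher control. Of the 7 genes, 3 were higher in sgSCR than in Vehicle without overlap, against 8.42% of all genes. In the same comparison BCKDHA was lower in every sgSCR library than in any Vehicle library (-0.27, adjusted p = 0.428). None of the 7 passed the test, against 1.43% of all genes. Medians of the list were 0.032 with SA and -0.12 with sgALAS1.

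Pyruvate entry and the enzymes that switch the dehydrogenases by phosphorylation gave 1 rise and 2 falls with SA, and 2 rises and 1 fall with sgALAS1, among 10 tested genes, against 11.1% of all genes called with SA and 11.7% with sgALAS1. PDK1, a kinase that turns pyruvate dehydrogenase off, had 22.1, 29.2 and 25.8 CPM with SA, against 45.8, 57.4 and 40.7 CPM with Vehicle (-0.90, SE 0.18, adjusted p = 0.000843), a call kept in all 13 alternatives; with sgALAS1 it was at -0.26 (adjusted p = 0.394; -0.083 without sgSCR replicate 2), and the difference between the arms did not pass (0.64, adjusted p = 0.271). PDK2, another such kinase, fell in both arms but rested on few reads. It had 0, 2 and 7 reads with SA, against 24, 14 and 36 reads with Vehicle (-2.85, SE 0.79, adjusted p = 0.0171), and 2, 9 and 1 reads with sgALAS1, against 25, 18 and 20 reads with sgSCR (-2.32, SE 0.77, adjusted p = 0.0456). Its SA call failed when SA replicate 1 (0.0841), SA replicate 2 (0.0535) or Vehicle replicate 3 (0.118) was left out. Its guide call was lost without any 1 of the sgSCR replicates 1 to 3 (0.159, 0.0744 and 0.0759) or sgALAS1 replicate 1 (0.179) or 3 (0.151), and with limma-voom (0.0516).

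PDPR, the regulatory subunit of pyruvate dehydrogenase phosphatase, rose in both arms, as 1.78% of all genes did. It had 56.5, 47.9 and 42.0 CPM with SA, against 31.9, 35.2 and 35.4 CPM with Vehicle (0.51, SE 0.16, adjusted p = 0.0287), and 49.2, 49.1 and 43.2 CPM with sgALAS1, against 29.7, 31.7 and 38.4 CPM with sgSCR (0.51, SE 0.16, adjusted p = 0.0311). The groups did not overlap, yet the SA call failed without Vehicle replicate 1, 2 or 3 (0.0811, 0.069 and 0.0559) or SA replicate 1 or 2 (0.181 and 0.0547). The guide call failed without sgSCR replicate 1 or 2 (0.142 and 0.108) or sgALAS1 replicate 1 or 2 (0.113 and 0.0957), and both failed without the filter on low counts (0.0572 and 0.0554). PDPR has near-identical copies elsewhere in the genome, so its count is uncertain. PPM1K, the phosphatase that turns the branched-chain enzyme on, had 15.4, 19.8 and 17.1 CPM with sgALAS1, against 2.39, 7.39 and 10.6 CPM with sgSCR (1.34, SE 0.35, adjusted p = 0.00939). Its call was lost without sgSCR replicate 1, the lowest of the 12 libraries (0.95, adjusted p = 0.0686), and with SA it was at -0.033 (adjusted p = 0.971), while the difference between the arms did not pass (1.37, adjusted p = 0.232). The medians of these 10 genes were -0.11 with SA and -0.064 with sgALAS1.

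**Figure D4:**
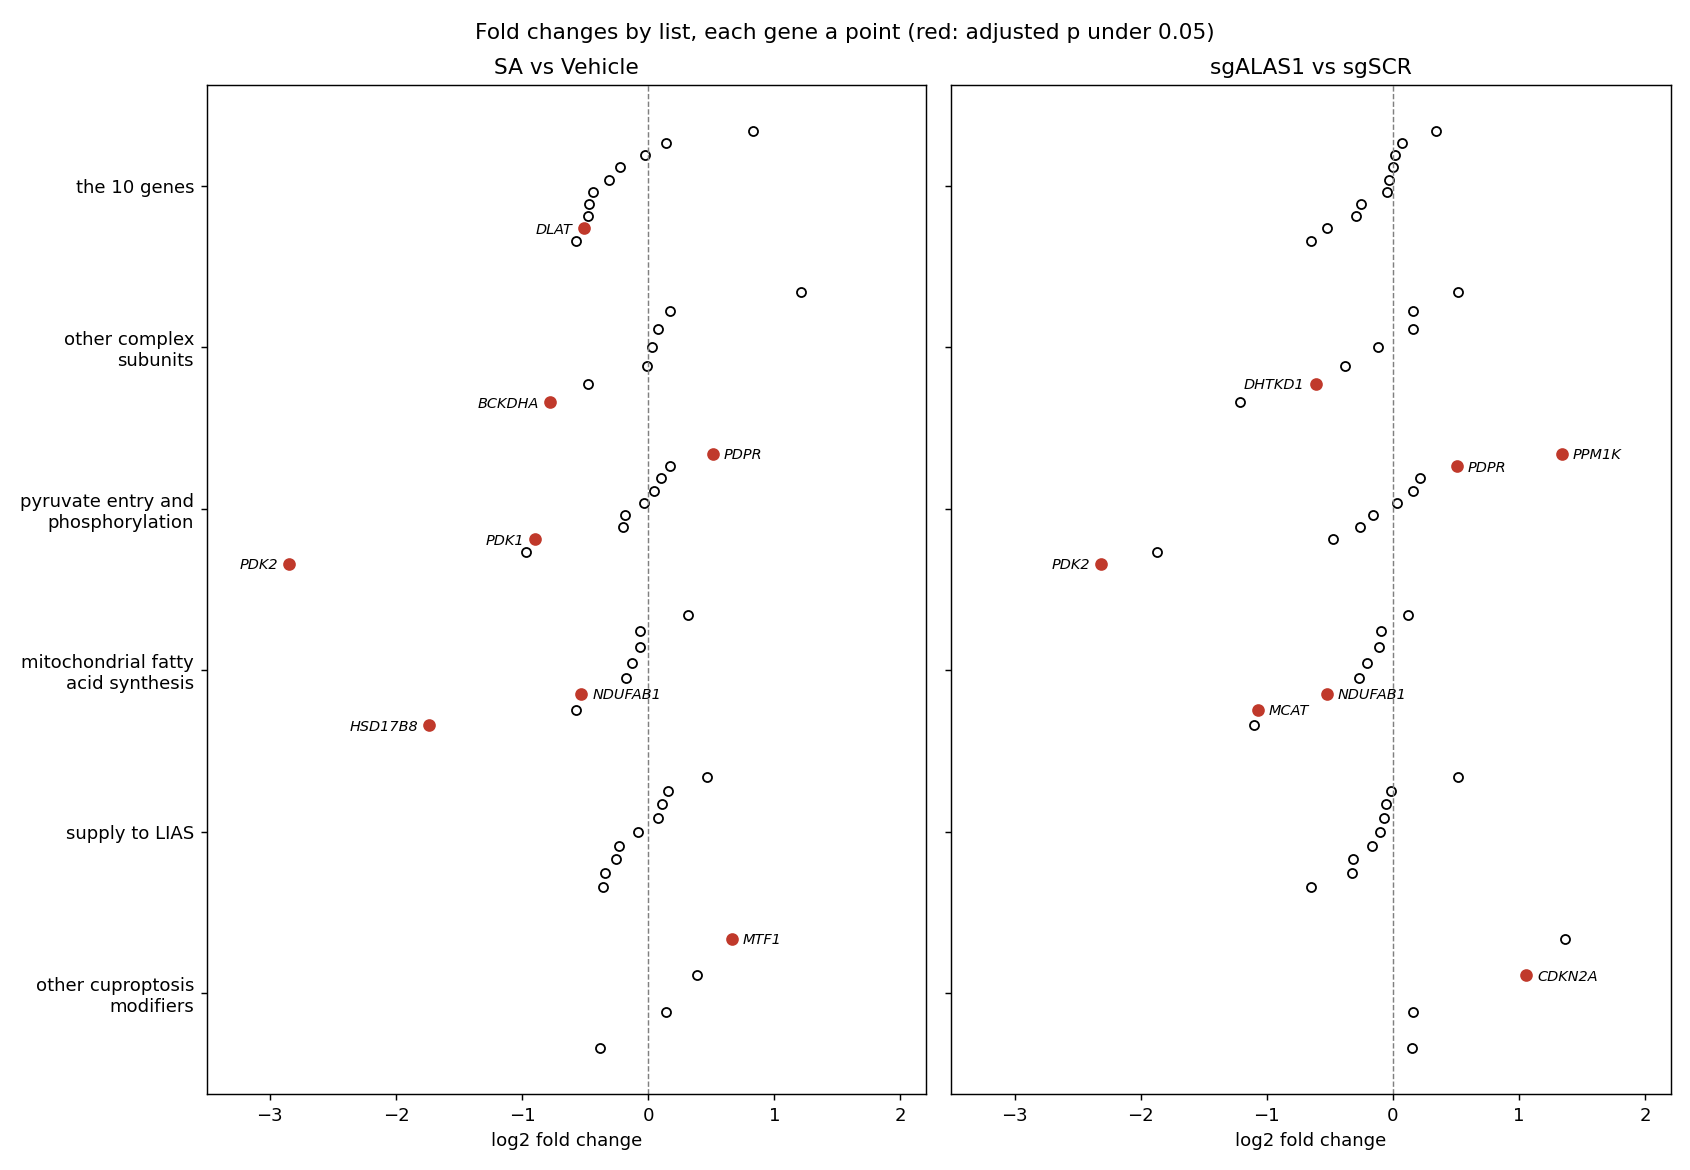
Log2 fold changes (horizontal axis) of the tested genes by list, SA over Vehicle on the left and sgALAS1 over sgSCR on the right; each point is a gene, and red named points passed the test at an adjusted p under 0.05. NDUFAB1 sits at -0.53 in both panels, and the 9 genes that supply LIAS hold no red point.

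Genes that supply LIAS with electrons, iron-sulfur clusters and S-adenosylmethionine had 0 calls among 9 in either arm by edgeR. Of all genes, 11.1% were called with SA and 11.7% with sgALAS1. At an unadjusted p under 0.05 there were 2 of the 9 in each arm, against 24.4% of all genes with SA and 24.8% with sgALAS1. The medians of the 9 genes were -0.082 with SA and -0.10 with sgALAS1. Log2 fold changes were below 0 in 5 of them with SA and in 8 with sgALAS1, against 51% and 50.3% of all genes. The smallest p was that of FDXR, the reductase that feeds electrons to ferredoxins, which with sgALAS1 was the only 1 of the 9 above 0. FDXR had 41.2, 35.6 and 30.6 CPM with SA, against 30.2, 23.0 and 24.1 CPM with Vehicle (0.47, SE 0.18, adjusted p = 0.0941). Under the guide FDXR had 36.7, 36.5 and 38.3 CPM with sgALAS1, against 26.3, 31.7 and 19.8 CPM with sgSCR (0.52, SE 0.18, adjusted p = 0.0596). Its groups did not overlap in either arm, and single libraries decided the call: it passed without Vehicle replicate 1 (0.61, adjusted p = 0.0455) and without sgSCR replicate 2 (0.70, adjusted p = 0.028).

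Among 4 tested genes that act on cuproptosis from outside lipoylation, 1 rose with SA, against 4.83% of all genes, 1 rose with sgALAS1, against 4.88%, and none fell. MTF1, a metal-responsive transcription factor, had 47.2, 49.5 and 61.6 CPM with SA, against 35.6, 29.3 and 35.0 CPM with Vehicle (0.67, SE 0.18, adjusted p = 0.0158; 0.0913 without Vehicle replicate 2 and 0.109 without SA replicate 3). It was at 0.15 with sgALAS1 (adjusted p = 0.691), and the difference between the arms did not pass (-0.52, adjusted p = 0.439). CDKN2A, the locus of the cell cycle inhibitors p16 and ARF, had 48.2, 42.5 and 49.4 CPM with sgALAS1, against 20.7, 25.9 and 20.5 CPM with sgSCR (1.06, SE 0.17, adjusted p = 4.82e-05). That call held in all 13 alternatives, while SA gave 0.38 (adjusted p = 0.148), with no call for the difference between the arms (0.68, adjusted p = 0.21). Between the controls CDKN2A averaged 22.4 CPM with sgSCR and 28.6 CPM with Vehicle, without a call (-0.36, adjusted p = 0.387). Its rise with sgALAS1 is thus measured from the lower control. In that comparison 2 of the 4 genes had an unadjusted p under 0.05, both lower with sgSCR, against 12.6% of all genes at that threshold. Both CDKN2A products share the 3′ end that is read here and are counted together. The medians of the 4 genes were 0.26 with SA and 0.61 with sgALAS1.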

How the data were processed

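Polyadenylated RNA of 12 OCI-AML3 libraries was sequenced with QuantSeq as single-end reads, per the labels' protocols. Per the submitters' processing notes, the tools were bcl2fastq 2.17.1.14, cutadapt 1.14, HISAT2 2.0.4, featureCounts of Subread 2.0.0, edgeR 3.34.0 and limma 3.48.3, with build hg19; the annotation release, strand setting and handling of multi-mapping reads were not given in the sources used here. Values in the deposited table are raw counts of reads per Ensembl identifier. Its columns were matched to samples by library name. Symbols came from a gene table (51996 identifiers) and GENCODE 29 (342), and 5567 stayed unnamed; chromosomes of named genes are those of RefSeq.

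Calculations used R 4.3.3, edgeR 4.0.16, limma 3.58.1 and DESeq2 1.42.0. After filterByExpr by group (minimum count 10, minimum total 15), 13832 identifiers were fitted over all 12 libraries with TMM factors and the quasi-likelihood test of edgeR, two-sided, with Benjamini-Hochberg adjustment over all of them. SE is the size of the log2 fold change over the square root of F, and intervals are 95% on the residual and prior degrees of freedom. The common biological coefficient of variation was 16.4%. Members, gene lists and the naming rule were all chosen with earlier results of these data known. PDHX is named outside the rule, after its value was seen. The rule names all members, ALAS1, genes of the 5 lists called in an arm or in the difference, the smallest p of a list without a call, and the 3 genes most like FDX1, LIAS and DLAT among 8882 named genes at a mean log2 CPM of at least 3. Alternatives are RLE and upper quartile factors, no filter, DESeq2, limma-voom, the 2 groups alone, a replicate block and each library left out; those for genes outside the members were added after their values were seen. A listed gene and a gene among those most like DLAT are not reported here, and the counts of the lists leave the first out.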

Additional observations from a re-analysis of the deposited data

How the results depend on the processing

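Of 565 alternative values of single members, 507 kept direction and side of the threshold, 8 lost a call, 1 gained a call and 49 turned sign. The count of members called with SA was 0 without the filter, 0 with the 2 groups alone, 2 with a replicate block, and 0 to 0 when single libraries were left out. The block added PDHA1 (-0.43, adjusted p = 0.0414); libraries with the same number were no more alike (residual correlations -0.066 to 0.057) than others (-0.15 to 0.11), so the number is not taken as a pairing. The block changed no other member's call; of the other named genes it brought FDXR under the threshold with sgALAS1 (0.53, adjusted p = 0.043). Over all genes, SA gave 1531 calls, and 954 to 1595 with a library left out (982 without SA replicate 1, 954 without SA replicate 3, 955 without Vehicle replicate 2). The difference gave 164 calls, 277 without the filter, and 109 to 340 with a library left out (340 without Vehicle replicate 1, 109 without sgSCR replicate 1). sgSCR against Vehicle gave 198 calls, 300 with DESeq2, and 84 to 276 with a library left out (104 without Vehicle replicate 2, 84 without sgSCR replicate 1). The cause of these moves was not tested. Values that turned sign were all uncalled. With sgALAS1, PDHA1 was 0.012 with upper quartile factors and 0.00036 with DESeq2. For the difference, LIPT2 was -1.055 with limma-voom and -0.030 with the block, and GCSH -0.098 with limma-voom. Between the controls, DLD was 0.023 with limma-voom and GCSH 0.015 with the block. With single libraries left out, the ranges that crossed 0 were, for SA, DLST -0.26 to 0.16, FDX1 -0.048 to 0.31, LIPT2 -1.06 to 0.45, PPM1K -0.46 to 0.19 and MCAT -0.22 to 0.15. For sgALAS1 they were DLD -0.18 to 0.052, DLST -0.11 to 0.16, GCSH -1.01 to 0.15, LIPT1 -0.24 to 0.25, LIPT2 -2.25 to 0.014, PDHA1 -0.24 to 0.14 and MTF1 -0.061 to 0.31. For the difference they were DLST -0.14 to 0.27, FDX1 -0.065 to 0.39, GCSH -0.54 to 0.63, LIAS -0.41 to 0.038 and LIPT2 -1.68 to 0.59. For the controls they were DLD -0.22 to 0.13, FDX1 -0.23 to 0.089, GCSH -0.19 to 0.083, PDHA1 -0.26 to 0.029 and PDHB -0.18 to 0.043. LIPT2 and GCSH had at most 13 and 14 reads in a library, which limits what can be detected in them.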

Other observations

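Reads of LIAS over reads of FDX1 within a library, a ratio that no scaling touches and that was chosen after the values were seen, were 0.381, 0.339 and 0.305 with SA, against 0.616, 0.496 and 0.436 with Vehicle. With sgALAS1 they were 0.387, 0.150 and 0.459, against 0.831, 0.639 and 0.407 with sgSCR. The drug groups did not overlap and the guide groups did, since sgALAS1 replicate 3 lay above sgSCR replicate 3. No test was run on these ratios. The ratio of DLAT to PDHB reads overlapped in both arms, at 0.605, 0.476 and 0.634 with SA, against 0.753, 0.626 and 0.602 with Vehicle, and at 0.458, 0.581 and 0.654 with sgALAS1, against 0.718, 0.622 and 0.603 with sgSCR. The ratio of DLAT to DLST reads was 0.351, 0.516 and 0.451 with SA, against 0.533, 0.520 and 0.769 with Vehicle, without overlap but with only a narrow gap, and 0.456, 0.632 and 0.486 with sgALAS1, against 0.664, 0.513 and 0.737 with sgSCR, with overlap.

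By Pearson correlation of log2 CPM over the 12 libraries, the genes most like FDX1 were POGZ (0.859), CYB5A (0.849) and ATP6AP1 (0.84). Those most like LIAS were NDUFA7 (0.933), SCARNA22 (0.915) and CST7 (0.913), and ATP11B (0.964) and TM7SF2 (0.907) were among those most like DLAT. These lie among the 3 highest of 8882 genes each, over libraries that share the 4 groups, and are given as a description.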
